A study of Mus musculus with 6 samples.

Results

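The fibroblast growth factor (FGF) and growth factor route to the kinase ERK was followed through 36 of its genes in the mouse lens, out of 20659 gene symbols with a named probe on the array. They were chosen by gene symbol from a fixed list of ligands, receptors, adaptors, RAS proteins, kinases, feedback inhibitors and ETS transcription factors, and the AP-1 genes downstream of ERK were left out. All 36 had at least 1 probe, from 1 to 4 each and 58 in all. Of these genes, 29 were measured, meaning that a probe was well above background on all 3 arrays of at least 1 genotype, as held for 12782 genes of the whole array.

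The lenses came from mice aged 3 months. One group of 3 arrays (replicates 1, 2 and 4) was from CRISPR/Cas9 knock-in mice whose βB2-crystallin, a structural protein of the lens, carries cysteine in place of tryptophan at residue 151 (W151C), and the other 3 arrays (replicates 1, 2 and 3) were from wild-type controls. The labels do not say whether knock-in mice were heterozygous or homozygous, what the background strain was, or whether an array held 1 animal or a pool. The design calls the arrays biological replicates, so p-values measure the spread between these arrays, which may in part be technical.

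FGFs bind receptor tyrosine kinases, which act through the adaptors Frs2 and Grb2 to load RAS with GTP and switch on RAF, MEK and then ERK. ERK in turn induces ETS factors of the Etv1, Etv4 and Etv5 group and inhibitors such as the Sprouty, Spred and dual-specificity phosphatase proteins, which act back on the same route. In the lens, FGF reaching the cells from the vitreous is the best known signal for epithelial cells to become fibre cells, and insulin-like, epidermal and platelet-derived growth factors act on lens cells as well.

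Levels are given as log2 signal relative to the 75th percentile of the same array, so that 0 is the level of that percentile, and a difference is the knock-in mean minus the wild-type mean on that scale. A gene is said to have risen or fallen where limma's test over all 12782 genes gave a Benjamini-Hochberg adjusted p under 0.05. By that rule 3311 genes, 25.9% of those tested, differed between genotypes, with 13.3% higher and 12.6% lower in the knock-in. Every array carried lens RNA by its markers: all 8 fibre markers were well above background on all 6 arrays, and so were at least 4 of the 5 epithelial markers. The 3 knock-in arrays were on 1 slide and the wild-type arrays on 2 others, and wild type 3, scanned on another day, had a 75th percentile of 698 against 120 to 201 on the rest. Slide and genotype cannot be told apart. Knock-in 4 stood apart in 5 retina markers, whose summed signal was 5.90 in log2 against 0.72 and 1.39 on knock-in 1 and 2 and -1.49 to -1.10 on the wild-type arrays. The epithelial markers summed to 3.70 to 4.13 in the knock-in and 4.24 to 4.47 in the wild type, without overlap. The ranges of the genotypes overlapped for the fibre (10.31 to 10.53 and 9.72 to 11.81), mesenchymal (3.30 to 4.15 and 3.28 to 3.48, within which Col1a1 rose), pigmented epithelial (0.15 to 0.70 and -0.93 to 0.39) and erythroid markers (-1.27 to -0.14 and -1.73 to -0.90, knock-in first). Lum, Twist1, Hbb-bs and Alas2 among these were not well above background on any array.

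Of the 29 measured growth factor signalling genes, 4 rose in the knock-in lens (Igf1, Pdgfa, Etv4 and Dusp6) and 2 fell (Spry1 and Mapk4). These 6 make up 20.7%, below the 25.9% of all genes. The arrays of the genotypes did not overlap for 10 of the 29, 6 higher and 4 lower in the knock-in, while 45.9% of all genes had non-overlapping arrays. The median difference of the 29 was 0.18 and their median absolute difference 0.34, beside -0.04 and 0.42 over all genes. By role, 2 of 4 measured ligands rose, none of 7 receptors and none of 5 adaptors and RAS proteins was called, 1 of 5 kinases fell, 1 of 5 feedback inhibitors rose and another fell, and 1 of 3 ETS factors rose. In bulk lens RNA, fewer cells of a type and less RNA per cell cannot be told apart.

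**Figure D1:**
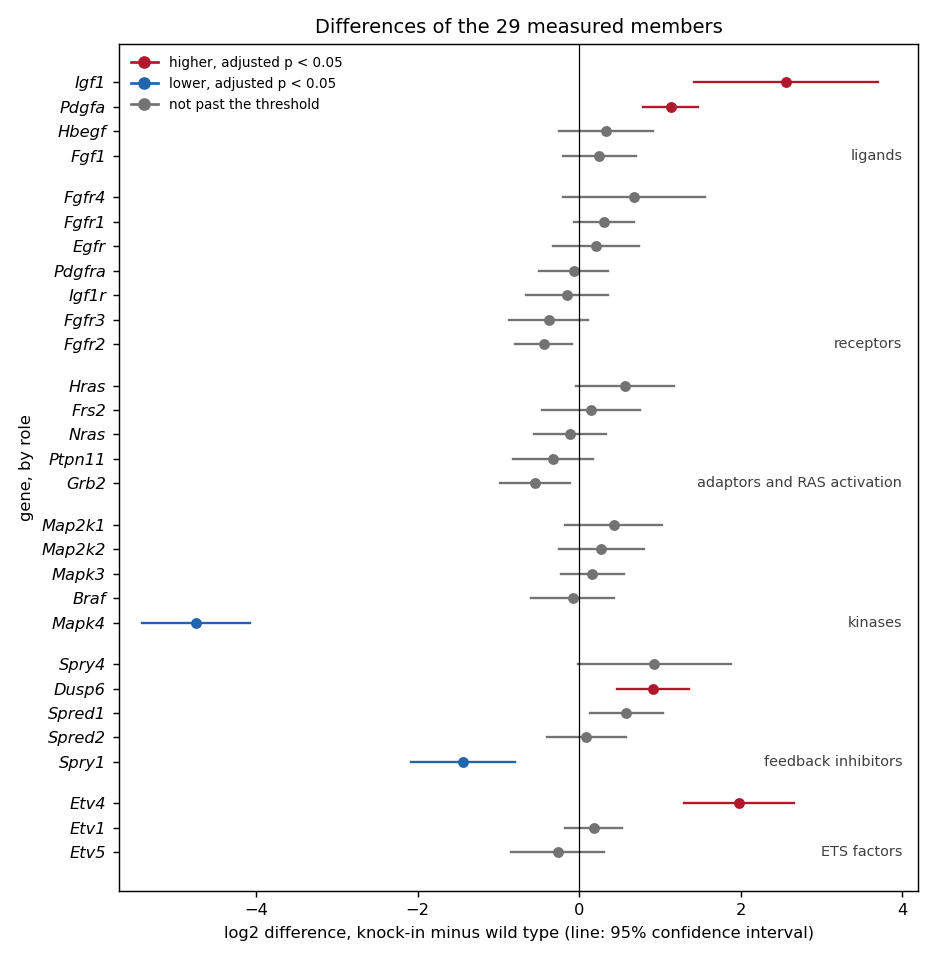
Difference between knock-in and wild-type means for the 29 measured genes, in log2, with 95% confidence intervals from the limma fit over 3 arrays per genotype, grouped by role. Red and blue mark the 4 higher and 2 lower genes with an adjusted p under 0.05, grey the other 23, and Mapk4, at -4.74, lies far to the left of the other 28, which run from -1.44 to 2.56.

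Promoter sequence bears on these genes because ETS factors, the products of Etv1, Etv4 and Etv5 among them, bind a GGAA core. RefSeq promoters of build GRCm38.p6, each 300 bases from 250 before to 50 after a start site, were found for 28 of the 36 genes. CGGAAG contains the GGAA core and was searched on both strands. It stood in 7 of the 28 (Dusp6, Egfr, Frs2, Pdgfa, Ptpn11, Spred1 and Spred2), or 25%. Of all 27025 genes in the table, 18.78% held it. All 7 belong to the 22 measured genes with a promoter, a share of 31.82%, and 32.25% of all measured genes with a promoter held it. The longer ETS consensus CCGGAAGT, which contains CGGAAG, was in the promoter of Frs2 alone among the 28. It was in those of 4.31% of all genes in the table and 8.33% of measured genes with a promoter. The cyclic AMP response element TGACGTCA stood in 3 of the 28 (Areg, Braf and Ptpn11) and in 2.03% of all genes in the table. Among the 22 measured genes it stood in 2, beside 3.37% of all measured genes with a promoter. A match of letters is not evidence of binding, and its lack says only that these letters are not in this window.

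The 100 bases before the start site are given here for 4 of the genes that changed, and for Frs2 as the one gene with the longer consensus; they were picked after the array values were known. Capitals mark CGGAAG or its reverse complement CTTCCG. Pdgfa lies at chr5:138994945-138995044 on the minus strand, Dusp6 at chr10:99263131-99263230 on the plus strand, Spry1 at chr3:37639847-37639946 on the plus strand, Igf1 at chr10:87861011-87861110 on the plus strand and Frs2 at chr10:117148475-117148574 on the minus strand, all in GRCm38.p6. Pdgfa and Dusp6, which rose, each hold 1 such match in this stretch, while Spry1, which fell, and Igf1, which rose, hold none. The shorter GGAA was not searched for and is not marked, though the Igf1 stretch holds it. Pdgfa has 2 start sites in the table. The one printed holds the match, and the window of the other holds none of the 3 motifs.
Pdgfa: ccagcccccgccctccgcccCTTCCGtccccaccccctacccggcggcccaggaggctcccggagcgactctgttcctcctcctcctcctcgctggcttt
Dusp6: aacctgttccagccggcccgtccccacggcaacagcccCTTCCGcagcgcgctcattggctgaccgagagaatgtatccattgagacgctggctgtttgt
Spry1: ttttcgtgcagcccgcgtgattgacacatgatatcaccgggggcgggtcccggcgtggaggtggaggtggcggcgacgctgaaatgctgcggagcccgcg
Igf1: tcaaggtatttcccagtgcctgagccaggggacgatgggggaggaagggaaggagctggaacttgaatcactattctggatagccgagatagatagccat
Frs2: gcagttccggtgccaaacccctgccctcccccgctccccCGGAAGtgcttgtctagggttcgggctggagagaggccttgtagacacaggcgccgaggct

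Among the ligands, Pdgfa, which encodes the A chain of platelet-derived growth factor, read 3.52, 3.58 and 3.51 on knock-in 1, 2 and 4 and 2.48, 2.42 and 2.30 on wild type 1, 2 and 3. The arrays of a genotype lay close together and the genotypes were well apart. The difference was 1.13 (SE 0.14, limma adjusted p = 0.00222), a 2.20-fold rise. A second Pdgfa probe gave 0.87 (adjusted p over probes 0.00872). Pdgfa stayed past the threshold under all 16 alternative settings, from 1.00 to 1.20.

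Igf1, insulin-like growth factor 1, which signals through Igf1r, read -0.41, -1.53 and -1.29 on the knock-in arrays and -3.41, -2.90 and -4.63 on the wild-type arrays. Knock-in 1 was the highest, wild type 3 the lowest and not well above background, and the groups did not overlap. The difference was 2.56 (SE 0.48, limma adjusted p = 0.0102, 95% interval 1.42 to 3.71), or 5.91-fold. Igf1 passed the filter through the knock-in arrays alone, and this fold includes the undetected wild type 3. Without wild type 3 the difference was 2.07. The 4 Igf1 probes did not read alike. A second probe gave 2.78 (adjusted p over probes 0.0082), another gave 0.10 (0.867), and the last was not well above background on any array.

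The Igf1 call was lost with normexp background correction (1.11, adjusted p = 0.143) and in the fit that took slide as random (2.72, adjusted p = 0.0878). Igf1 is also made by macrophages, and the macrophage genes C1qc and Tyrobp were read on the same arrays. C1qc was 1.52 on knock-in 1, -0.39 and -0.56 on knock-in 2 and 4, and -3.83, -2.96 and -5.80 on the wild-type arrays, highest on the array where Igf1 was highest. Tyrobp, below background throughout the wild type, was at least 5.11-fold higher in the knock-in. Both were named after their values were seen, and the list did not move one way: of the 8 measured leukocyte markers these 2 rose, Itgam fell (2.97 ± 0.36 against 4.61 ± 0.96, SD, n = 3 each, limma adjusted p = 0.0404) and 5 were not called, among them C1qb at -2.19 against -1.33. Of the 10 leukocyte markers with a probe, 8 to 9 were well above background per knock-in array and 5 to 8 per wild-type array. Their summed signal, led by Itgam, ran from 3.37 to 4.27 in the knock-in and from 3.73 to 5.38 in the wild type, in log2. Among the 6 mesenchymal markers Col1a1, a collagen of fibroblasts, rose, at 2.44, 3.24 and 1.6 on the knock-in arrays against -1.97, -2.92 and -3.02 (limma adjusted p = 0.000621), while Pdgfrb was not called and the other 4 were below the filter. The part of either cell type in the Igf1 and Pdgfa results was not tested.

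The other measured ligands were not called. Fgf1, acidic FGF, differed by 0.25 (adjusted p = 0.377, 95% interval -0.20 to 0.70), with wild type 3 at 1.39 and the other 5 arrays between 1.84 and 2.04. Hbegf, a membrane-anchored ligand of the EGF receptor, differed by 0.34 (adjusted p = 0.350, 95% interval -0.24 to 0.92). Fgf2 (basic FGF) and Areg (amphiregulin, an EGF receptor ligand) were not well above background on any array. Fgf9 reached that level on knock-in 4 alone, at -2.24, so no fold is given. Knock-in 4 is also the array with the high retina markers, whose part in this was not tested.

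**Figure D2:**
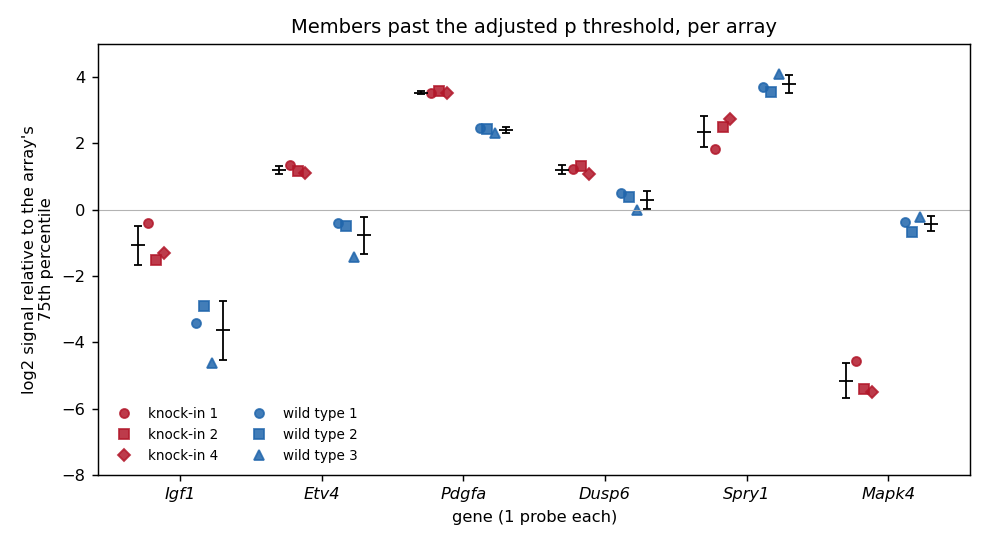
Log2 signal relative to the array's 75th percentile for Igf1, Pdgfa, Etv4, Dusp6, Spry1 and Mapk4 on each array (knock-in red, wild type blue, the shape giving the replicate), with bars for the mean and SD of the 3 arrays. The genotypes do not overlap for any of the 6 genes, and the 3 Mapk4 readings of the knock-in are below background.

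All 7 receptors were measured and none was called, with differences from -0.44 to 0.68. Fgfr3 and Fgfr1 are FGF receptors found in lens epithelium and fibres. Fgfr1 read 3.76, 3.97 and 3.95 in the knock-in and 3.58, 3.44 and 3.73 in the wild type, higher on every knock-in array by a small margin. That difference of 0.31 had an adjusted p of 0.194, and the other 2 kept Fgfr1 probes gave -0.73 and 0.33. Fgfr2, which carries FGF signals in epithelia, lay lower on every knock-in array, at -0.56, -0.71 and -0.76 against -0.19, -0.34 and -0.19. Its difference was -0.44 (adjusted p = 0.0714, 95% interval -0.79 to -0.08), and it was past the threshold in 1 setting, the mean of both probes, at -0.82 (adjusted p = 0.0183). The second Fgfr2 probe, spotted 10 times, read -2.58, -2.40 and -2.61 in the knock-in and -1.50, -1.71 and -0.76 in the wild type. These readings do not overlap either, with a difference of -1.21 (adjusted p over probes 0.0186).

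Fgfr3 differed by -0.38 (adjusted p = 0.218, 95% interval -0.87 to 0.11) and Fgfr4, close to background, by 0.68 (adjusted p = 0.220, 95% interval -0.20 to 1.55). Egfr, the EGF receptor, differed by 0.21 (adjusted p = 0.523, 95% interval -0.32 to 0.74). A second kept Egfr probe gave 0.74 without overlap between genotypes (adjusted p over probes 0.0926). The mean of both kept probes gave 0.48 and passed the threshold (adjusted p = 0.0431). Igf1r and Pdgfra, the receptors for the 2 ligands that rose, differed by -0.15 (95% interval -0.65 to 0.36) and -0.07 (95% interval -0.50 to 0.36), and their arrays overlapped.

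Ligand and receptor were also set side by side within each array. These pairs were picked after the values were seen and carry no test. Pdgfa minus Pdgfra was 2.63, 2.25 and 2.14 on the knock-in arrays and 1.13, 1.20 and 1.09 on the wild-type arrays. The change in that difference was 1.20, and 1.18 without wild type 3. For Igf1 minus Igf1r the change was 2.71, and 2.21 without wild type 3. In both pairs the genotypes did not overlap, and since each is a difference between genotypes of a within-array difference, the scaling of the arrays cancels out of it.

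The adaptors and RAS proteins gave no call. Grb2, the adaptor that brings the RAS activator Sos1 to receptors, read 1.57, 2.00 and 2.05 in the knock-in and 2.39, 2.36 and 2.50 in the wild type. Every knock-in array was lower, but the difference of -0.55 missed the threshold (adjusted p = 0.0662, 95% interval -0.98 to -0.12), and a second probe gave -0.35 with overlapping arrays. Frs2, the docking protein of FGF receptors, differed by 0.15 (adjusted p = 0.713), and Ptpn11, the phosphatase SHP2 that passes on the FGF signal, by -0.32 (adjusted p = 0.292). Hras differed by 0.57 (adjusted p = 0.146), and without wild type 3 it was 0.80 and past the threshold (adjusted p = 0.0177). Nras differed by -0.11 (adjusted p = 0.703), but another of its 3 probes gave 1.16 (adjusted p over probes 0.0105), so the Nras probes disagree in sign. Sos1 itself was not well above background on any array.

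In the kinase tier the core enzymes were not called and Mapk4 fell. Mapk4 encodes ERK4, an atypical member of the ERK family that MEK does not activate. It read -0.36, -0.67 and -0.23 on the wild-type arrays and -4.56, -5.41 and -5.52 on the knock-in arrays, where it was not well above background. The fitted difference was -4.74 (SE 0.28, limma adjusted p = 0.000169). Because the knock-in has only an upper limit, the fold is given as a bound. The wild-type mean over the lowest signal well above background on the knock-in arrays makes Mapk4 at least 7.62-fold lower on this probe in the reported fit.

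A second Mapk4 probe read -2.35, -2.33 and -2.99 in the wild type and -3.30, -3.37 and -3.92 in the knock-in. That is the same direction, at least 1.62-fold lower (adjusted p over probes 0.0364). The size of the Mapk4 difference moved most with the processing, to -1.49 with normexp background correction and -2.86 as the mean of both probes, and it was past the threshold in all 15 settings that measured it.

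Braf, the RAF kinase measured here, differed by -0.08 (adjusted p = 0.820, 95% interval -0.59 to 0.43). Map2k1 and Map2k2, the 2 MEK genes, differed by 0.43 (adjusted p = 0.252) and 0.28 (adjusted p = 0.403), and a second Map2k2 probe went the other way at -0.58 (adjusted p over probes 0.0401). Mapk3, ERK1, read 0.96, 0.95 and 0.92 in the knock-in and 0.67, 0.64 and 1.03 in the wild type. Its difference was 0.17 (adjusted p = 0.502, 95% interval -0.23 to 0.56), and a second probe gave 0.36. Wild type 3 was the highest of the 3 wild-type arrays for Braf, Map2k1, Map2k2 and Mapk3. Without it, the Map2k1 difference was 0.68 and passed the threshold (adjusted p = 0.0221).

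Among the feedback inhibitors, Dusp6 rose and Spry1 fell. Dusp6, a cytoplasmic phosphatase that acts on ERK and is itself a classic ERK target, read 1.22, 1.33 and 1.07 on the knock-in arrays and 0.49, 0.38 and -0.0065 on the wild-type arrays. The groups were apart, with wild type 3 the lowest. The difference was 0.91 (SE 0.19, limma adjusted p = 0.0134, 95% interval 0.47 to 1.36), a 1.89-fold rise. Dusp6 lost the call without knock-in 2 (0.85, adjusted p = 0.069) and in the fit that took slide as random (0.96, adjusted p = 0.12).

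Spry1, Sprouty 1, which dampens receptor tyrosine kinase signalling upstream of ERK and is likewise induced by FGF, moved the other way. It read 1.83, 2.48 and 2.73 on the knock-in arrays and 3.71, 3.56 and 4.09 on the wild-type arrays. Knock-in 1 was the lowest, and no knock-in array reached the wild-type range. The difference was -1.44 (SE 0.27, limma adjusted p = 0.0103, 95% interval -2.08 to -0.80), a level 0.368 times that of the wild type. The Spry1 call was lost in the fit that took slide as random (-1.49, adjusted p = 0.136). The epithelial markers summed to less on the knock-in arrays as well, at 3.70, 4.10 and 4.13 against 4.31, 4.24 and 4.47, and knock-in 1 was the lowest in both. Of the 5 epithelial markers Foxe3 fell (adjusted p = 0.0148) and the other 4 were not called. Foxe3, Cdh1, Gja1 and Aqp1 had lower means in the knock-in. Pax6 went the other way, with means of 0.78 in the knock-in and 0.40 in the wild type, and was highest on knock-in 1 (1.07). Aqp1 read 2.19 on knock-in 1 against 3.04 and 3.21 on knock-in 2 and 4, while Foxe3 read -3.26, -2.83 and -3.28. The part of epithelial RNA in the Spry1 result was not tested.

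Within each array, Dusp6 minus Spry1 was -0.61, -1.15 and -1.66 in the knock-in and -3.22, -3.18 and -4.10 in the wild type. The change was 2.36, and 2.06 without wild type 3. This pair, too, was picked after the values were seen.

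Dusp4, a nuclear phosphatase of ERK, was below the filter because knock-in 2 and 4 alone were well above background, at -2.30 and -1.92. Knock-in 1 read -3.23 and the wild-type arrays -5.90, -5.73 and -5.53, none of them well above background. The 3 knock-in readings were all above the 3 wild-type readings, and no fold is given. With no filter on dim probes, where 9.69% of 20656 genes were called, Dusp4 was the one of the 7 unmeasured genes to pass (adjusted p = 0.00434). That setting moved the median difference of all genes to 0.21 and used readings not well above background, so it cannot decide whether Dusp4 rose. Areg, well above background on no array, also read higher on every knock-in array than on any wild-type array. Spry2 and Dusp5 were not well above background on any array.

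Spred1, which blocks RAF activation, was higher on every knock-in array, at -0.74, -0.73 and -0.95 against -1.40, -1.67 and -1.12. Its difference of 0.59 missed the threshold (adjusted p = 0.0613, 95% interval 0.14 to 1.03) and passed without wild type 3 (0.72, adjusted p = 0.0116). Spry4 differed by 0.93 with overlapping arrays (adjusted p = 0.133) and Spred2 by 0.09 (adjusted p = 0.781).

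**Figure D3:**
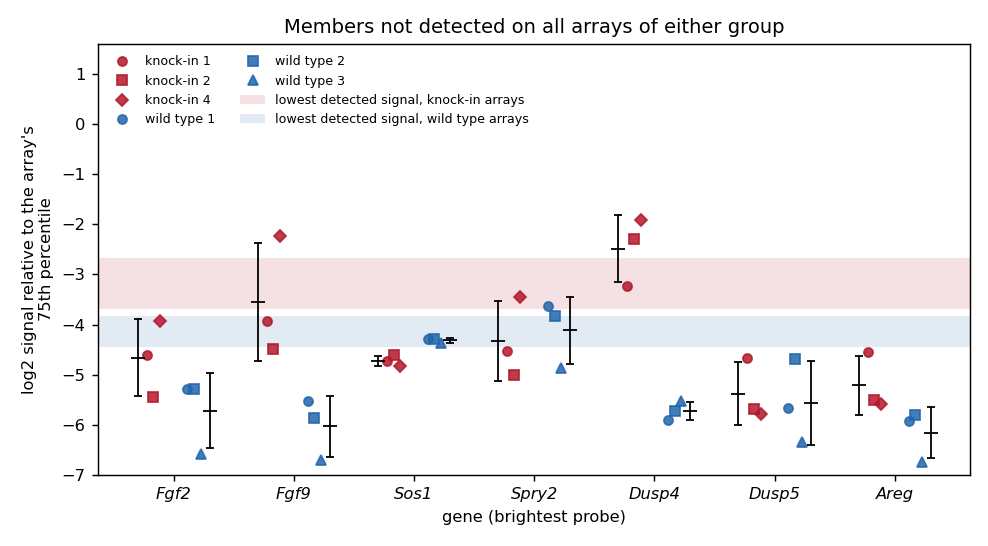
Log2 signal on each array for the 7 genes below the filter (knock-in red, wild type blue), with bars for the mean and SD of 3 arrays and bands for the range over arrays of the lowest signal of any probe well above background. Dusp4 on knock-in 2 and 4 and Fgf9 on knock-in 4 lie above the bands, and the other 5 genes were well above background on no array.

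The 3 PEA3-group ETS factors, which share their DNA-binding domain and are often induced together by FGF, did not read alike. Etv4 was 1.34, 1.16 and 1.10 on the knock-in arrays and -0.39, -0.51 and -1.44 on the wild-type arrays. The knock-in arrays lay close together, wild type 3 was the lowest and the groups were far apart. The difference was 1.98 (SE 0.29, limma adjusted p = 0.00403, 95% interval 1.29 to 2.66), a 3.94-fold rise. Etv4 was past the threshold under all 16 alternative settings, from 1.62 to 2.17. A second Etv4 probe was not well above background on any array, so the rise rests on 1 probe.

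Etv5 read 2.12, 2.73 and 2.94 in the knock-in and 2.80, 2.70 and 3.08 in the wild type, with overlapping arrays and a difference of -0.26 (adjusted p = 0.460, 95% interval -0.84 to 0.31). Etv1 differed by 0.18 (adjusted p = 0.414, 95% interval -0.17 to 0.53). The intervals of Etv4 and Etv5 do not overlap. Within each array Etv4 minus Etv5 was -0.78, -1.57 and -1.84 in the knock-in and -3.19, -3.21 and -4.51 in the wild type, a change of 2.24, or 1.81 without wild type 3, in a pair picked after the values were seen.

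**Figure D4:**
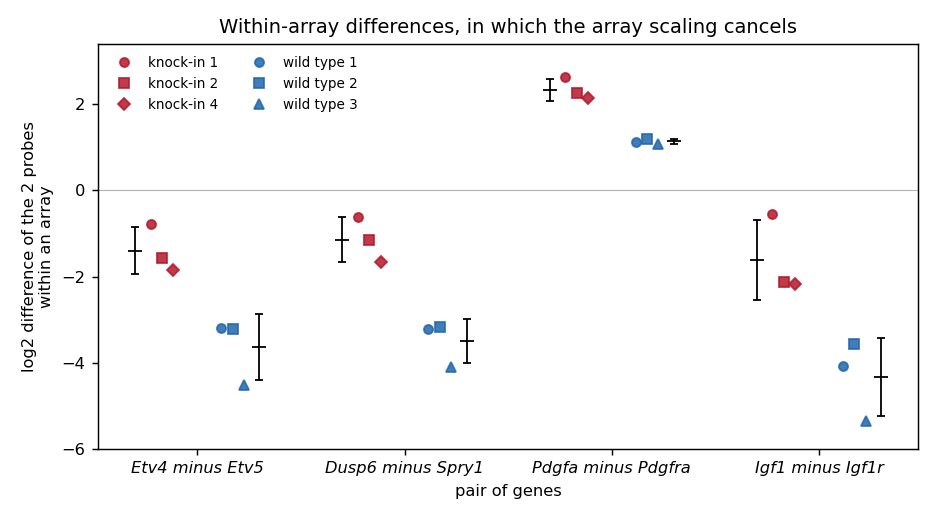
Within-array differences in log2 for the pairs Etv4 minus Etv5, Dusp6 minus Spry1, Pdgfa minus Pdgfra and Igf1 minus Igf1r, with 1 point per array and bars for the mean and SD of each genotype. In each pair all 3 knock-in points lie above the 3 wild-type points.

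The calls moved with the arrays and slides used. Without wild type 3, which is also the fit with scan day as a block, 10 of the 29 genes passed: the same 6 and Hras, Map2k1, Spred1 and Egfr, against 43.5% of all genes. In the fit that took slide as random 3 passed, Etv4, Mapk4 and Pdgfa, against 4.86% of all genes. Without knock-in 4, the array with the high retina markers, the same 6 genes passed. Knock-in 1 and 2 also summed higher in these markers (0.72 and 1.39) than the wild-type arrays (-1.49 to -1.10). The part of retina RNA in the 6 calls was not tested.

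**Figure D5:**
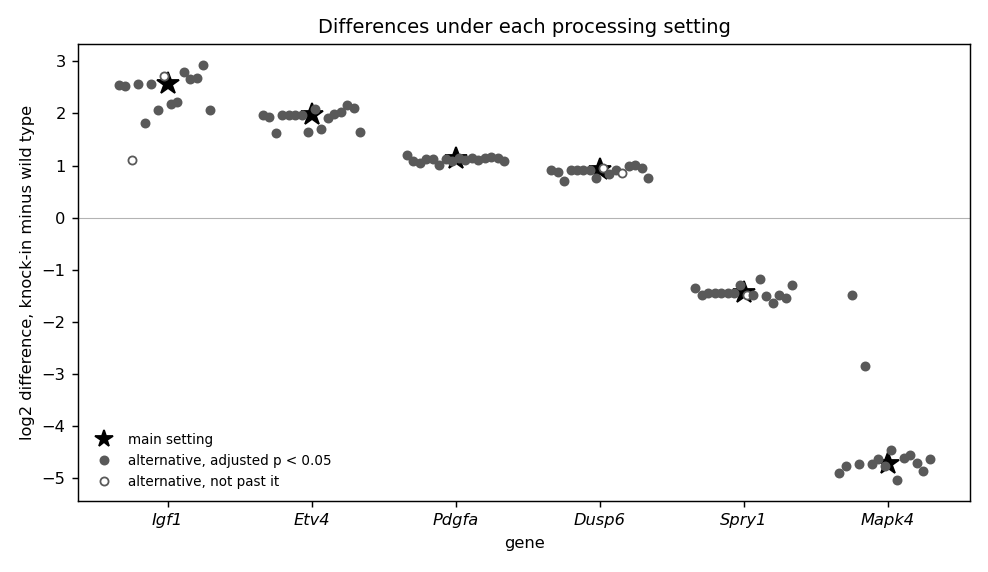
Log2 difference of the 6 called genes in the reported fit (star) and under each alternative setting, with filled points where the adjusted p was under 0.05. No difference crosses 0, and the open points belong to Igf1, Dusp6 and Spry1.

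Beyond these 36, a wider list of 122 growth factor pathway genes was counted, of which 86 were measured. In it 15 rose and 10 fell, 29.1%, beside 25.9% of all genes, with a median difference of -0.10. Of those 25 genes, 13 also passed with random slides, and 15 passed whichever single array was left out. Of the genes named from it here, Egf, Flt1, Vegfb, Rasgrp1, Mras, Rps6ka3, Dusp10, Dusp1, Ets1, Ets2 and Elk4 lost their call with normexp background correction, without a change of direction. Egf, Flrt3, Vegfa, Flt1, Vegfb, Rras2, Mras, Dusp1 and Elk4 lost it with random slides. The counts by role that follow stand beside 13.3% higher and 12.6% lower over all genes. They are too small to be read as a result about a role.

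Of 14 other FGF ligands and cofactors, 2 rose and 2 fell. Fgf18, a secreted FGF, rose by 2.49 (SE 0.28, adjusted p = 0.00151), with knock-in arrays from -0.15 to 0.06 and wild-type arrays from -3.21 to -2.23. Flrt3, a membrane protein that binds FGF receptors, rose by 1.02 (SE 0.17, adjusted p = 0.00714; 0.0959 with random slides). Lctl, a Klotho relative that read 5.03 to 5.19 in the knock-in and 7.06 to 7.70 in the wild type, fell by 2.38 (SE 0.21, adjusted p = 0.000614). Fgf12, an intracellular FGF homologue that does not signal through the receptors, fell by 1.64 (SE 0.18, adjusted p = 0.0012).

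In the EGF family 2 of 8 fell and none rose. Nrg4, a ligand of ERBB4, fell by 3.11 (SE 0.38, adjusted p = 0.00183), with no overlap between the knock-in range of -1.93 to -0.51 and the wild-type range of 1.56 to 2.07. Egf fell by 0.89 (SE 0.21, adjusted p = 0.0224), but 1 knock-in array alone was well above background, the difference ran from -0.997 to -0.13 over the alternative settings, and the call was lost on leaving out knock-in 2, wild type 1 or wild type 2. In the IGF family 1 of 10 rose: Igfbp2, a secreted binding protein of IGFs, by 4.47 (SE 0.43, adjusted p = 0.000757), where 1 wild-type array was well above background. Igfbp2 read 1.18, 1.23 and -0.04 on knock-in 1, 2 and 4, all above the wild-type range of -4.35 to -3.31.

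Of 8 measured genes of the PDGF and other receptor tyrosine kinase families, 3 rose and 1 fell. Vegfa, the main vascular growth factor, rose by 1.23 (SE 0.20, adjusted p = 0.00637; 0.0902 with random slides). Its receptor Flt1 rose by 2.68 (SE 0.53, adjusted p = 0.0117), with 1 wild-type array well above background, and lost the call without knock-in 1 (adjusted p = 0.053). Vegfb fell by 0.89 (SE 0.21, adjusted p = 0.0221), a call lost without any 1 of the 3 knock-in arrays or wild type 1. Of the 5 endothelial markers, Pecam1 was well above background on all 3 arrays of each genotype. Vwf was so on 2 knock-in and 3 wild-type arrays, and neither was called (limma adjusted p = 0.401 and 0.537). Cdh5, Tek and Cldn5 were not well above background on any array. The summed signal of the 5 markers overlapped, from -1.02 to -0.74 in the knock-in and from -1.49 to -0.24 in the wild type. The part of endothelial RNA in the Vegfa and Flt1 results was not tested.

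Among 16 adaptors and RAS regulators 1 rose and 2 fell. Rras2, a RAS relative, rose by 0.90 (SE 0.19, adjusted p = 0.015), a call lost without knock-in 2, wild type 1 or wild type 2. Rasgrp1, an exchange factor that loads RAS with GTP, was at least 5.72-fold lower in the reported fit, below background on all 3 knock-in arrays (adjusted p = 0.00216). Its log2 difference ran from -4.42 to -1.05 over the alternative settings. Mras, another RAS relative, fell by 0.75 (SE 0.20, adjusted p = 0.0328), a call lost on leaving out any single array other than wild type 3. Of 10 kinases and scaffolds 1 rose, Rps6ka3, the ERK-activated kinase RSK2, by 2.06 (SE 0.18, adjusted p = 0.000601).

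Of 10 wider feedback genes 2 rose and 2 fell, beside 13.3% higher and 12.6% lower over all genes. Dusp10, a phosphatase of p38 and JNK, was at least 4.93-fold higher in the reported fit, below background on all 3 wild-type arrays (adjusted p = 0.00085). Its log2 difference ran from 1.32 to 4.60 over the alternative settings. Phlda1, which is induced by growth factors, rose by 1.43 (SE 0.18, adjusted p = 0.00235). Spry3, the X-linked Sprouty, fell by 1.64 (SE 0.15, adjusted p = 0.000628), with 2 of 3 knock-in arrays well above background. Dusp1, an immediate early phosphatase, fell by 1.75 (SE 0.51, adjusted p = 0.0446), with wild-type arrays spread from 1.33 to 3.45, and it kept the call on leaving out wild type 3 alone among the 6 arrays.

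Of 10 other ETS factors and targets, 5 rose and 1 fell. Ets1 rose by 3.01 (SE 0.27, adjusted p = 0.000601), with 1 wild-type array well above background, and Ets2 by 1.52 (SE 0.15, adjusted p = 0.000791). The Ets2 arrays of a genotype lay close together, and no array overlapped the other genotype. Both are ETS factors that ERK phosphorylates. Elk4, a ternary complex factor at serum response elements, fell by 0.75 (SE 0.22, adjusted p = 0.0493), with 2 knock-in arrays well above background and a call lost on leaving out any single array other than wild type 3.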

How the data were processed

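Cy3-labelled total RNA cRNA from lenses was read on 1-colour Agilent mouse arrays, 3 per genotype. The deposited values are scanner intensity per spot: per the file headers, the authors' Agilent Feature Extraction 11.0.1.1 made a background-subtracted processed signal; the submitters' processing notes name version 9.1. Any scaling between arrays was not given in the sources used here. Non-control spots numbered 43020 and probes 39429; 21076 probes were well above background on all arrays of a genotype. Outlier spots, by the scanner's non-uniformity and population marks, were dropped.

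The log2 processed intensity, deposited unlogged by the authors, was scaled to each array's 75th percentile. Probes were named through RefSeq accessions (27234 named), and the probe of highest mean stood for a gene. Genotypes were compared with limma 3.58.1 (R 4.3.3; lmFit, eBayes, 4 residual degrees of freedom) over 12782 genes with Benjamini-Hochberg adjustment. The fit was tested on simulated data with independent noise on each array and no slide effect, so that test does not bear on slide. Adjusted p over probes comes from the same fit on all probes that passed, named or not. A gene not well above background in a genotype is given as a bound: the brighter group's mean over the dim group's limit, which on each array is its lowest signal well above background, or the gene's own signal if that is higher. Such a bound holds for the probe and background treatment of the reported fit, and other settings can give a smaller fold. Marker sums add linear signals. An exact permutation test of 3 against 3 arrays cannot go below p = 0.1, so none is given. The number of arrays limits the precision; no array had saturated spots.

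Members and lists were chosen with earlier results of these data known. Genes named: all 36, and per role of the wider list at most 2 higher and 2 lower of smallest p. Alternatives were quantile normalization, median centring, normexp (offset 50, on median signals), other filters and probe rules, outlier spots kept, scan day, slide and replicate blocks, and leaving out each array. Protein sequences were not used here.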

Additional observations from a re-analysis of the deposited data

How the results depend on the processing

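Each of the 6 called genes kept its direction in all settings that measured it, and Etv4, Pdgfa and Mapk4 kept their call as well. Of the 29 genes, 4 were higher and 2 lower. The higher count was 8 with scan day as a block, 2 with slide as a random block and 3 to 8 on leaving out each array, with 8 without wild type 3 and 3 without knock-in 2. The lower count was 1 with random slides and 1 where all 6 arrays had to be above background, a filter that leaves Mapk4 out. The same filter leaves Igf1 out, and the higher count under it was 3. In the wider list, 15 higher became 6 with normexp and 8 with slide as a random block. Its 10 lower became 5 with normexp, 5 with no filter, 6 with all 6 arrays above background, 26 with scan day, 5 with the random slide block and 5 to 26 on leaving out each array (26 without wild type 3). The 3311 calls over all genes became 1432 with normexp, 2002 with no filter, 5564 with scan day, 621 with the random slide block and 1528 to 5564 on leaving out each array. Median centring lowered the share of higher calls from 51.3% to 40.9%, and the 6 genes stayed called. No filter moved the median difference of all genes to 0.21. The causes of these shifts were not tested.

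The replicate block on the shared numbers 1 and 2 gave 9 higher among the 29 genes, 26 lower in the wider list and 5444 calls over all genes. Deviations of same-numbered arrays from their genotype means correlated at 0.17 and -0.22. The crossed pairs gave like values, 0.22 for knock-in 1 with wild type 2 and -0.18 for knock-in 2 with wild type 1. The correlations therefore cannot tell whether same-numbered arrays were paired, and the labels give only the number.

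Changes of sign were found only in uncalled genes with small differences. With the mean of a gene's probes Fgfr1 was -0.031, Nras 0.34 and Map2k2 -0.15. Braf was 0.13 with scan day as a block, and with the replicate block Nras was 0.087 and Braf 0.17. On leaving out each array the ranges were -0.062 to 0.40 for Frs2, -0.26 to 0.0084 for Nras, -0.24 to 0.13 for Braf, -0.019 to 0.28 for Spred2, -0.32 to 0.053 for Igf1r and -0.15 to 0.084 for Pdgfra.

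Signal over background limits the 7 genes below the filter and the dim readings of Igf1, Fgfr4, Spry4 and Mapk4. The number of arrays, 3 per genotype, sets the width of the 95% intervals.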
